A study of Homo sapiens with 6 samples.

Results

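Prostaglandins are made from arachidonic acid, which phospholipases free from membrane phospholipids. The prostaglandin H synthases PTGS1 (COX-1) and PTGS2 (COX-2) oxidise it to prostaglandin H2. Terminal synthases then turn this intermediate into prostaglandin E2 or prostacyclin, HPGD oxidises prostaglandin E2 to an inactive form, and the receptors EP2 and EP4 (genes PTGER2 and PTGER4) answer it by raising cyclic AMP. PTGS1 is known as the constitutive and PTGS2 as the inducible enzyme, and PTGS2 mRNA is widely read as a marker of ferroptosis, the iron-dependent cell death that follows lipid peroxidation. The 9 genes described here, of 65988 gene identifiers in each count file, are PTGS1, PTGS2, the terminal synthase genes PTGES, PTGES2, PTGES3 and PTGIS, the breakdown gene HPGD, and PTGER2 and PTGER4. They were chosen by their role in this pathway and also from measured values, since the RSL3 against control fold changes of these same libraries were known when they were put together. Their fold changes and calls are therefore a description, and no p-value is given for them.

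RNA was taken from U87MG cells, an established human glioblastoma line, labelled as wild type, given either vehicle (control) or RSL3 at 2 µM, an inhibitor of the lipid peroxidase GPX4, with 3 libraries in each group. All cells came from 1 line. The labels do not say whether the libraries of a group came from separate cultures, so the spread between them may be technical. The study's general statistics statement gives 3 biologically independent experiments or samples, without naming these libraries. Total counts ranged from 27813462 to 43306335 per library. Values are TMM-normalized counts, that is raw counts scaled to the mean library size, and a gene was called at an adjusted p under 0.05 in edgeR's quasi-likelihood test over the 16105 genes that passed a filter on low counts. Of those genes, 25.6% were called, 12.9% higher and 12.7% lower in RSL3-treated cells. All 7 mesenchymal glioblastoma markers examined were detected in every library. Their summed level was 213732 to 221149 normalized counts in control and 189974 to 199381 in RSL3-treated libraries, with 5 of the 7 called lower and 1 called higher. The summed astrocyte list was 744 to 798 in control and 574 to 629 in RSL3-treated libraries, with SLC1A3 called lower (660 ± 32.5 to 450.04 ± 5.82 normalized counts; SD, n = 3). GFAP was not called but lay higher in every RSL3-treated library (104 ± 11.6 to 138 ± 19.7; SD, n = 3). The summed neuron list was 1029 to 1117 in control and 1129 to 1157 in RSL3-treated libraries, with SYT1 called higher (0.24 on the log2 scale) and SNAP25 lower (-1.04). The astrocyte marker AQP4 had 0 counts in all libraries and S100B at most 1, 5 of 6 myeloid markers stayed under 10 counts in each library, and 3 of 4 endothelial markers did too. The summed endothelial list, nearly all VWF, was 66.8 to 97.1 normalized counts in control and 30.1 to 50.9 in RSL3-treated libraries. The part of these markers in the results below was not tested, and in bulk RNA fewer cells of a kind and less RNA per cell cannot be told apart.

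The bases before the start site are shown for the terminal synthase and the receptor that were lowest after RSL3 relative to control, PTGES and PTGER2, and for PTGS2, which was not called. Each is the stretch of 250 bases before the start site that RefSeq gives on GRCh38.p14, 5′ to 3′ on the strand of the gene. Capitals mark matches to 4 short motifs searched on both strands, namely the GC box GGGCGG, the TATA box TATAAA, the cyclic AMP response element core TGACG and the CCAAT box.
PTGES, chr9:129753043-129753292, minus strand: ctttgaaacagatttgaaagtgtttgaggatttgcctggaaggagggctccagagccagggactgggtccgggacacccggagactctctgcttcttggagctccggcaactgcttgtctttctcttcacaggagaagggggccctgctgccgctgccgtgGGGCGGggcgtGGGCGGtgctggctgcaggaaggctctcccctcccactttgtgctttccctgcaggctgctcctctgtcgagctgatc
PTGER2, chr14:52314062-52314311, plus strand: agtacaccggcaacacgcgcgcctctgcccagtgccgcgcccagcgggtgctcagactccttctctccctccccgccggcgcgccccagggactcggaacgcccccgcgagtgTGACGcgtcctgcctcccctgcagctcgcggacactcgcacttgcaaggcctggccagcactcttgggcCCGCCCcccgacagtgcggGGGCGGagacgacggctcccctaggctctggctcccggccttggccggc
PTGS2, chr1:186680424-186680673, minus strand: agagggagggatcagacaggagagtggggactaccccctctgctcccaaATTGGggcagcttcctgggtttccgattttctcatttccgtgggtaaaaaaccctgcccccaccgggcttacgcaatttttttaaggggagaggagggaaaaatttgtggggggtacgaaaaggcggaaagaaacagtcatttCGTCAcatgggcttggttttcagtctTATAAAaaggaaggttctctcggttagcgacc
The PTGES stretch held 2 GC boxes, beginning 89 and 78 bases before the start site, and none of the other motifs. PTGER2 also had 2 GC boxes, at 68 and 49 bases, and 1 TGACG core at 137 bases. The PTGS2 stretch had no GC box but a TATA box at 32 bases, a reversed TGACG core at 58 bases and a reversed CCAAT box at 201 bases. PTGER4, which is not printed, had 4 GC boxes and 2 CCAAT boxes in the same window. Of 34943 such windows in the table, 42.5% held a GC box, 10.8% a TATA box, 21.2% a TGACG core and 32% a CCAAT box. These matches describe letters only. GENCODE places some starts elsewhere, so that the PTGS2 stretch lies inside the annotated span of the gene and partly under an exon of PACERR, and the last bases of the PTGER2 stretch lie in an annotated first exon. The table had windows for 8 of the 9 genes, and PTGIS was not among them.

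Levels between genes were compared per kilobase of exon, as RPKM over the union of annotated exons. In control cells PTGES stood highest, at 139 ± 7.80 RPKM (SD, n = 3), above PTGES3 at 70.1 ± 2.28 RPKM. PTGS2 followed at 20.7 ± 3.75 RPKM, and PTGES2 at 10.9 ± 0.768 RPKM. The receptors were lower by far, PTGER4 at 2.49 ± 0.433 RPKM and PTGER2 at 1.73 ± 0.108 RPKM, and the libraries of these neighbours did not overlap either. PTGS1, at 0.0386 ± 0.0226 RPKM, overlapped PTGIS at 0.0101 ± 0.0045 RPKM, and PTGIS overlapped HPGD at 0.0052 ± 0.0012 RPKM. With the longest transcript in place of the exon union, the control level of PTGES2 was 19.1 ± 1.34 RPKM, close to PTGS2 at 24.1 ± 4.37 RPKM, and the libraries still did not overlap. In RSL3-treated cells PTGES and PTGES3 stood side by side, at 74.5 ± 12.0 and 69.2 ± 0.745 RPKM, and their libraries overlapped.

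**Figure D1:**
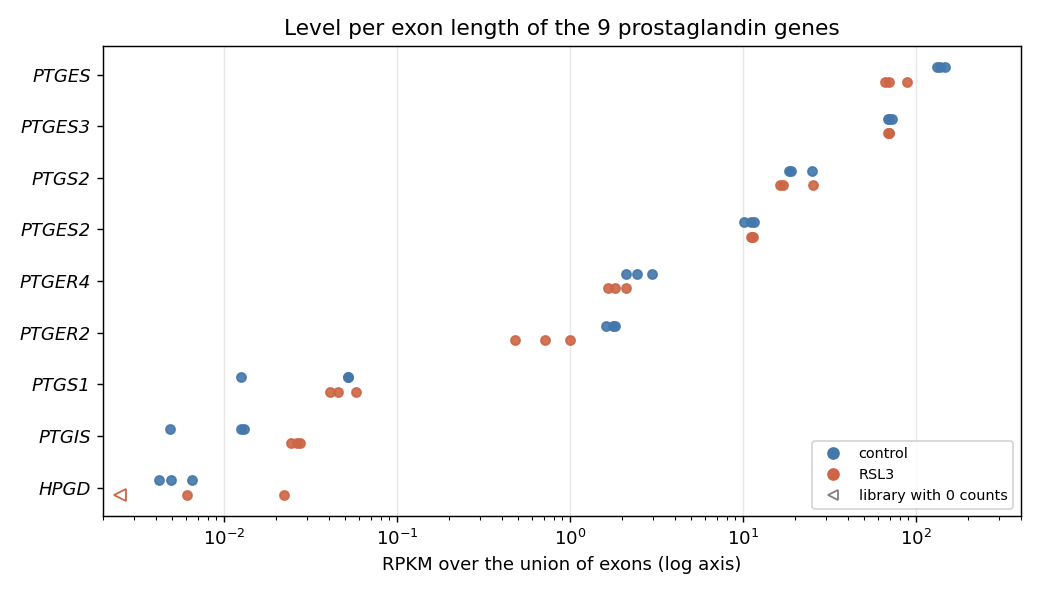
Level of each prostaglandin gene per exon length, as RPKM on a log axis, with 1 point per library (blue control, orange RSL3) and genes ordered by their control mean. PTGES is at 132 to 147 RPKM in control and 66.0 to 88.2 RPKM in RSL3-treated libraries, while PTGS1, PTGIS and HPGD lie at 0.0579 RPKM or below; the open triangle marks the RSL3-treated library with 0 counts of HPGD.

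Of the 9 genes, 7 passed the filter on low counts, and 3 of these were called lower in RSL3-treated cells, PTGES, PTGER2 and PTGER4. None was called higher. Since the genes were put together with this contrast known, nothing is read from these counts beside the background of 12.7% called lower. The median log2 fold change of the 7 was -0.09, against -0.0044 over all genes tested. In PTGES and PTGER2 the groups did not overlap, as in 38.6% of all genes tested.

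The prostaglandin H synthases were represented almost wholly by PTGS2. PTGS1 (ENSG00000095303, chromosome 9 of GRCh38, 122370530 to 122395703) had 13, 2 and 11 raw counts across control replicates 1, 2 and 3, against 7, 11 and 9 across RSL3 replicates 1, 2 and 3. The groups overlapped, and its log2 fold change of 0.24 carried a 95% interval from -0.85 to 1.33, so that a change of PTGS1 was not detectable at this depth. Without control replicate 2, the library with 2 counts, the fold change turned to -0.10. PTGS2 made up 99.7 to 99.9% of the summed RPKM of the pair in each library, whatever the treatment.

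PTGS2 (ENSG00000073756) lies on the minus strand of chromosome 1, from 186671791 to 186680922. Its normalized counts were 3418, 3514 and 4677 across control replicates 1, 2 and 3, against 3028, 3164 and 4713 across RSL3 replicates 1, 2 and 3. The highest library of each group was thus replicate 3, at almost the same level, and the groups overlapped over most of their range. The mean was 3869.7 ± 701 (SD, n = 3) with vehicle, against 3635 ± 936 (SD, n = 3) with RSL3. The fold change was 0.94, with a 95% interval from 0.79 to 1.11, and PTGS2 was not called. That interval uses a variance drawn towards that of other genes. It may be too narrow for a gene whose libraries vary this much, so no upper bound on an increase is read from it.

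The value for PTGS2 rested on single libraries. Its log2 fold change was -0.09 over all libraries (standard error 0.12), 0.08 without control replicate 3, 0.03 without RSL3 replicate 1 and 0.0044 without RSL3 replicate 2. Without RSL3 replicate 3 it was -0.32, and only in that leave-one-out fit was the gene called, as lower. Its coefficient of variation was 18.1% in control and 25.8% in RSL3-treated cells, against 5.63% and 16.1% for PTGES, 7.06% and 1.28% for PTGES2 and 3.25% and 1.08% for PTGES3. Replicate 3 lay 0.43 above the mean of the other control libraries and 0.61 above that of the other RSL3-treated libraries on the log2 scale. Upward deviations at least as large as that of PTGS2 were seen in 6.46% of genes in the control group and in 4.1% in the RSL3-treated group. PTGES and PTGER4 were also highest in replicate 3 of both groups, as were 14% of all genes tested. Of the exon bases of PTGS2, 219 (3.99%) are also covered by PACERR, an RNA read from the opposite strand. Counting ignored strand, and PACERR itself had only 15 to 28 raw counts per library.

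**Figure D2:**
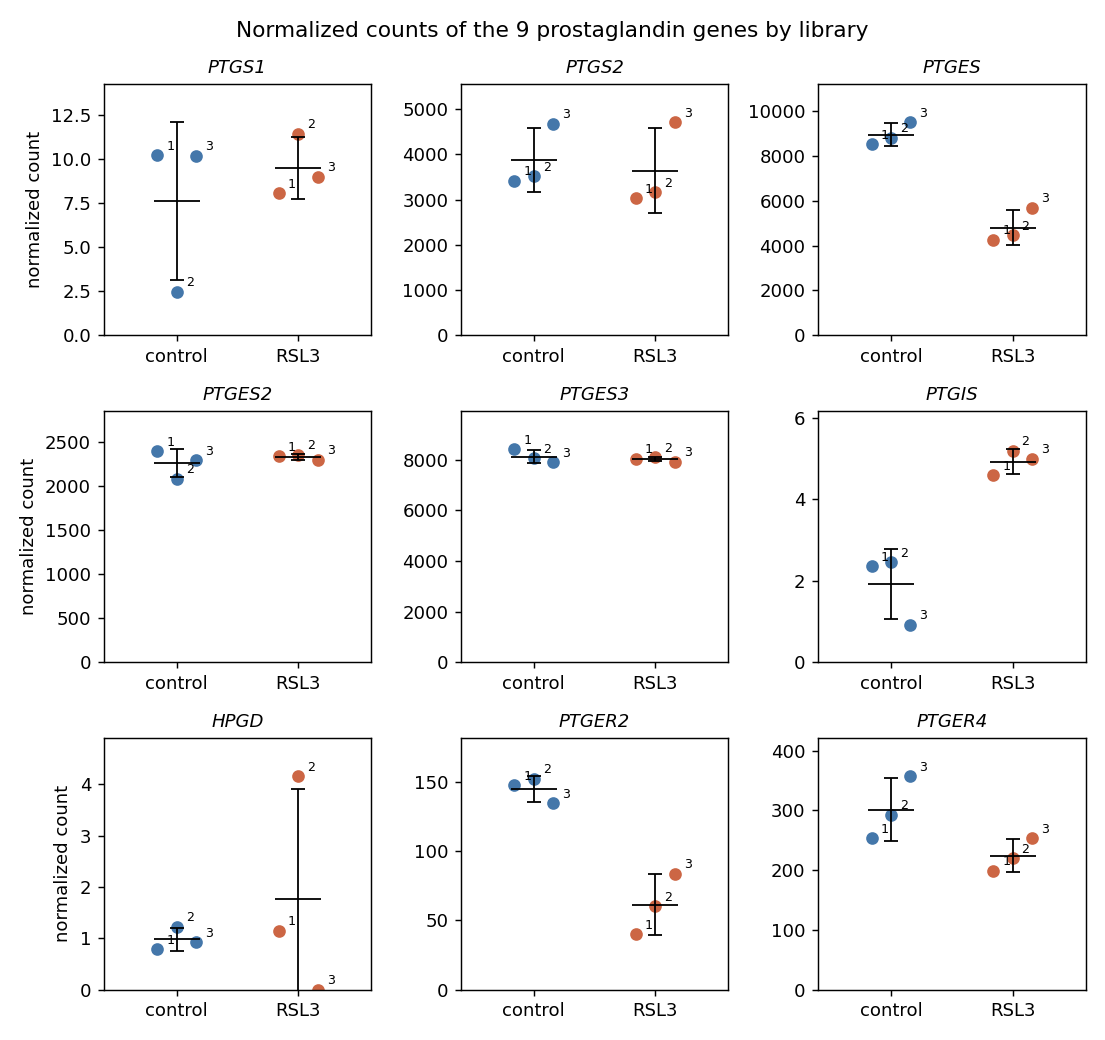
Normalized counts (vertical axis, from 0) of the 9 prostaglandin genes in each library, numbered by replicate, with the group mean and SD (n = 3) in black. PTGES and PTGER2 are lower in every RSL3-treated library, whereas the libraries of PTGS2 overlap and replicate 3 is highest in both groups; PTGS1, PTGIS and HPGD rest on 13 or fewer raw counts per library.

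Among the synthases of prostaglandin E2, PTGES was called lower and the other two were not called. PTGES (ENSG00000148344, minus strand of chromosome 9, 129738331 to 129753042) encodes the microsomal, inducible synthase that is known to work together with PTGS2. Its normalized counts were 8521, 8806 and 9499.8 across control replicates 1, 2 and 3, against 4254, 4466 and 5685 across RSL3 replicates 1, 2 and 3. All RSL3-treated libraries lay far below the lowest control library. The means were 8943 ± 503 (SD, n = 3) and 4801 ± 772 (SD, n = 3), a fold change of 0.54 with a 95% interval from 0.49 to 0.59, or -0.90 on the log2 scale (standard error 0.07). It was called lower with every library left out in turn, at log2 fold changes from -1.03 to -0.82. Ordered by fold change, PTGES was number 137 of the 2041 genes called lower. No other annotated gene shares its exon bases.

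PTGES3 (ENSG00000110958, chromosome 12), which encodes the cytosolic synthase also known as the HSP90 co-chaperone p23, was not called. Its normalized counts were 8411, 8053 and 7897 in control libraries and 8036, 8093 and 7923 in RSL3-treated libraries, so that the treated libraries lay inside the control range. The fold change was 0.99 (95% interval 0.94 to 1.03). PTGES2 (ENSG00000148334, chromosome 9), the gene of a membrane-associated synthase, had 2397, 2084 and 2293 normalized counts in control and 2336, 2357 and 2298 in RSL3-treated libraries. Here too the groups overlapped, with a fold change of 1.03 (95% interval 0.96 to 1.10). PTGES2 was not called. PTGES3 has processed copies elsewhere in the genome, and of the 5 in the files the most abundant had 9 to 31 raw counts per library. These counts do not show how many reads PTGES3 shares with its copies, which was not tested.

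The balance among these synthases moved with PTGES. PTGES held 61.1 to 65.0% of the summed RPKM of the 3 genes in control libraries and 45.0 to 52.6% in RSL3-treated libraries. PTGES3 went from 30.1 to 33.6% up to 40.8 to 47.3%, a shift in share while its own count stayed within the control range. Per count of PTGS2, there were 2.49, 2.51 and 2.03 counts of PTGES across control replicates 1, 2 and 3, against 1.40, 1.41 and 1.21 across RSL3 replicates 1, 2 and 3. These ratios did not overlap between the groups, and they varied less between libraries than PTGS2 itself did, at 2.34 ± 0.271 (SD, n = 3) with vehicle and 1.34 ± 0.117 (SD, n = 3) with RSL3. The ratios use the same counts as the fold changes and add no evidence of their own.

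Prostacyclin synthase and the main breakdown enzyme were close to absent. PTGIS (ENSG00000124212, chromosome 20) had 3, 2 and 1 raw counts in control and 4, 5 and 5 in RSL3-treated libraries. HPGD (ENSG00000164120, chromosome 4), the 15-hydroxyprostaglandin dehydrogenase, had 1 count in each control library and 1, 4 and 0 in RSL3-treated libraries. Both were removed by the filter on low counts, and no change was tested. The normalized counts of PTGIS did not overlap between the groups, but they rest on 6 control and 14 RSL3 counts in all.

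Both receptor genes were called lower. PTGER2 (ENSG00000125384, plus strand of chromosome 14, 52314305 to 52328598) encodes EP2. It had 148, 153 and 135 normalized counts across control replicates 1, 2 and 3, against 40.2, 60.3 and 83.9 across RSL3 replicates 1, 2 and 3. The groups were well apart, while the RSL3-treated libraries spread more among themselves, with a coefficient of variation of 35.5% against 6.27% in control. From 145 ± 9.09 (SD, n = 3) the mean fell to 61.5 ± 21.8 (SD, n = 3), a fold change of 0.43 (95% interval 0.32 to 0.57). It was the largest fold change of the 7 genes tested, and the gene was called lower with each library left out, at log2 fold changes from -1.51 without RSL3 replicate 3 to -1.004 without RSL3 replicate 1. The raw counts behind it were 124 to 188 per control library and 35 to 84 per RSL3-treated library.

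PTGER4 (ENSG00000171522, plus strand of chromosome 5, 40679915 to 40693735), which encodes EP4, moved less. Its normalized counts were 253.1, 293 and 357 across control replicates 1, 2 and 3, against 199, 220.2 and 253.7 across RSL3 replicates 1, 2 and 3. The highest RSL3-treated library thus lay just above the lowest control library, and the groups overlapped there. The fold change was 0.75 (95% interval 0.62 to 0.90), or -0.42 on the log2 scale (standard error 0.13). The call was lost without control replicate 3 (-0.27), without RSL3 replicate 1 (-0.34) and without RSL3 replicate 2 (-0.40), and also in DESeq2 with 2 surrogate variables (-0.41). Because PTGER2 fell further, its share of the summed RPKM of both receptors went from 35.2 to 45.6% in control to 22.5 to 32.2% in RSL3-treated libraries. Whether the changes of the receptors differ was not tested.

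**Figure D3:**
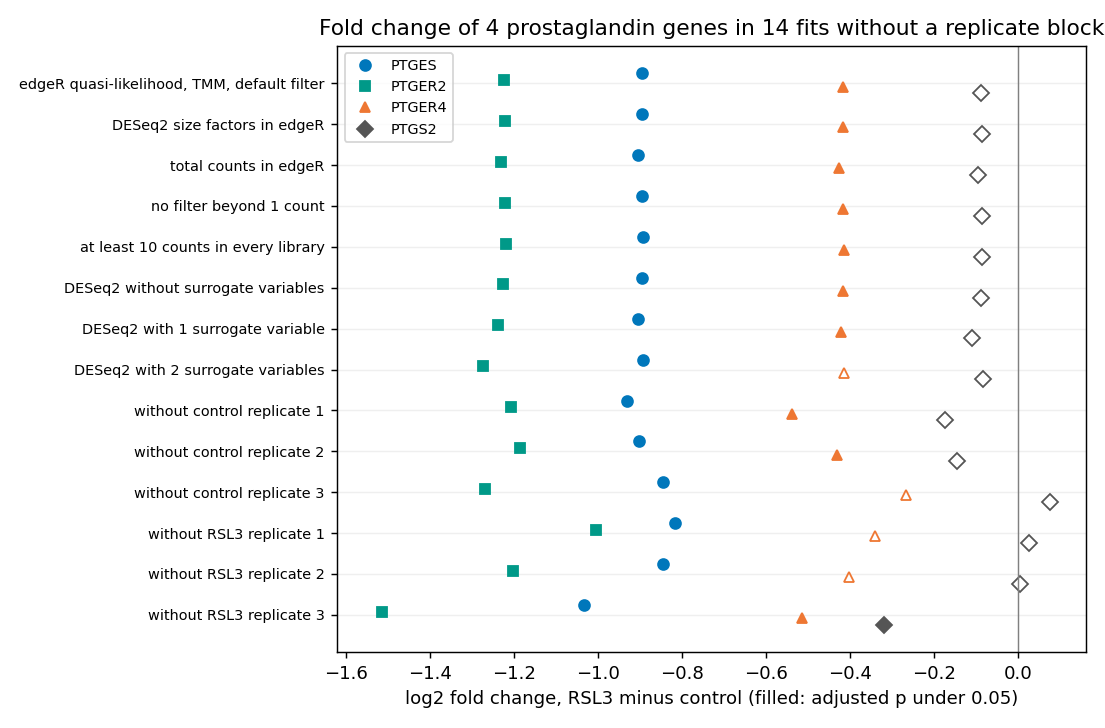
Log2 fold change (RSL3 minus control, horizontal axis) of PTGES, PTGER2, PTGER4 and PTGS2 in 14 fits without a replicate block (scalings, filters, tools and left-out libraries), with filled marks where the gene was called. PTGES and PTGER2 stay filled and below 0 in these fits, PTGER4 loses its call in 4 of them, and PTGS2 crosses 0 and is filled without RSL3 replicate 3.

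Genes with the most similar profile were sought among 11369 other named genes with a mean of at least 100 normalized counts, by the root mean square difference of log2 CPM over the 6 libraries after centring each gene. PTGES was closest to IFIT1, an interferon-induced gene (difference 0.04), CDH3 (0.05) and TLR3 (0.06), whose log2 fold changes were -0.90, -0.88 and -0.92. PTGER2 was closest to PCDH18 (0.12), BDKRB1, a bradykinin receptor (0.21), and ATOH8 (0.24), with log2 fold changes of -1.10, -0.92 and -1.38. For PTGS2 the nearest were FER1L4 (0.06), MALAT1 (0.07) and PGBD2 (0.09), with log2 fold changes of -0.08, -0.21 and 0.02. This is a description over 6 libraries that share a treatment contrast.

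The pathway around the 9 genes was read from 83 further genes in lists grouped by known role, of which 67 passed the filter. These lists, too, were put together with earlier results of the same libraries known. Their counts are therefore a description, nothing is read from their shares, and no p-value is given for their genes. Of the 67 tested, 18 were called higher and 11 lower, 43.3% against 25.6% of all genes. In the release of arachidonate, 5 of 9 tested genes rose and 2 fell, beside 12.9% higher and 12.7% lower over all genes. MGLL, the lipase that frees arachidonate by way of monoacylglycerol, rose from 4604 ± 72.6 to 5419 ± 84.4 normalized counts (SD, n = 3). DAGLB and PLA2G4C rose too, with log2 fold changes of 0.39 and 0.45, and so did ANXA1 (0.30), known as a phospholipase A2 inhibitor. The cytosolic phospholipase gene PLA2G4A was called lower, at -0.38, and S100A10 at -0.16. PLA2G4A was not called at an adjusted p under 0.01, and it was not followed through the fits with libraries left out. Among 6 other prostanoid synthases AKR1C3 and PTGDS rose (0.43 and 0.37) and AKR1B1 fell (-0.23). The reads of AKR1C3 are uncertain, since it shares long stretches of near-identical sequence with AKR1C1. Of the exon bases of PTGDS, 23.4% are also covered by another annotated gene. The call of PTGDS was lost without control replicate 2 (0.32), control replicate 3 (0.33) or RSL3 replicate 3 (0.27).

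Of 7 tested genes of transport and breakdown, 2 rose and 2 fell, beside 12.9% higher and 12.7% lower over all genes. PTGR1, a reductase of prostaglandin breakdown products, rose from 3834 ± 150.5 to 5861 ± 340 normalized counts (SD, n = 3), a log2 fold change of 0.61. AKR1C1, which shares long stretches of near-identical sequence with AKR1C2 and AKR1C3 so that its reads are uncertain, had a log2 fold change of 0.78. PTGR3 and CBR3 fell, at -0.18 and -0.64. PTGR3 was not called without control replicate 3 (-0.13) or RSL3 replicate 1 (-0.17), and CBR3, of whose exon bases 71.1% are also covered by CBR3-AS1 on the other strand, was not called without control replicate 1 (-0.56), RSL3 replicate 1 (-0.54) or RSL3 replicate 2 (-0.62). Of 6 other receptor genes tested, only PTGFRN was called, as lower, a regulator that binds the prostaglandin F receptor (-0.51). No lipoxygenase or leukotriene gene was called among 6 tested of 13, and ALOX5 and LTC4S had 0 counts in all libraries.

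Inflammatory genes that are often induced together with PTGS2 were all detected, and 6 of 13 rose while 1 fell, beside 12.9% higher and 12.7% lower over all genes. IL1B rose from 2258 ± 205 to 3622 ± 545 normalized counts (SD, n = 3), a log2 fold change of 0.68. MMP1 had the largest rise of the list, 0.77 on the log2 scale, and was not followed through the fits with libraries left out. CXCL8, ICAM1 and CXCL2 rose by 0.49, 0.42 and 0.29 on the log2 scale, and TNFAIP3, an inhibitor of NF-κB, fell by 0.42. IL1A rose by 0.14, a call lost without control replicates 1 or 3 or RSL3 replicates 1 or 2 (0.10 to 0.15). Cyclic AMP is the messenger of EP2 and EP4. In the list of its early targets, 3 of 12 tested genes (25%) were called higher and 0 lower. Over all genes 12.9% were called higher and 12.7% lower, and nothing is read from the share of the list. The 3 called were DUSP1 (0.35), CREM (0.29) and PDE4B (0.40), all higher. Of those not called, NR4A3 (-0.57) and SIK1 (-0.42) lay lower in every RSL3-treated library. CRTC2 (0.09), a coactivator listed with these genes rather than a target itself, lay higher in every RSL3-treated library. Of the regulators of PTGS2 mRNA turnover and partners of the cytosolic synthase, 4 of 8 fell, ZFP36L1 (-0.34), ZFP36L2 (-0.27), CELF2 (-0.51) and HSP90AA1 (-0.10). The call of HSP90AA1 was lost without control replicate 2 or RSL3 replicate 3. DESeq2 with 2 surrogate variables did not call PTGDS, PTGR3, CBR3, IL1A or PDE4B, and with 1 surrogate variable it did not call PTGR3 or CBR3.

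**Figure D4:**
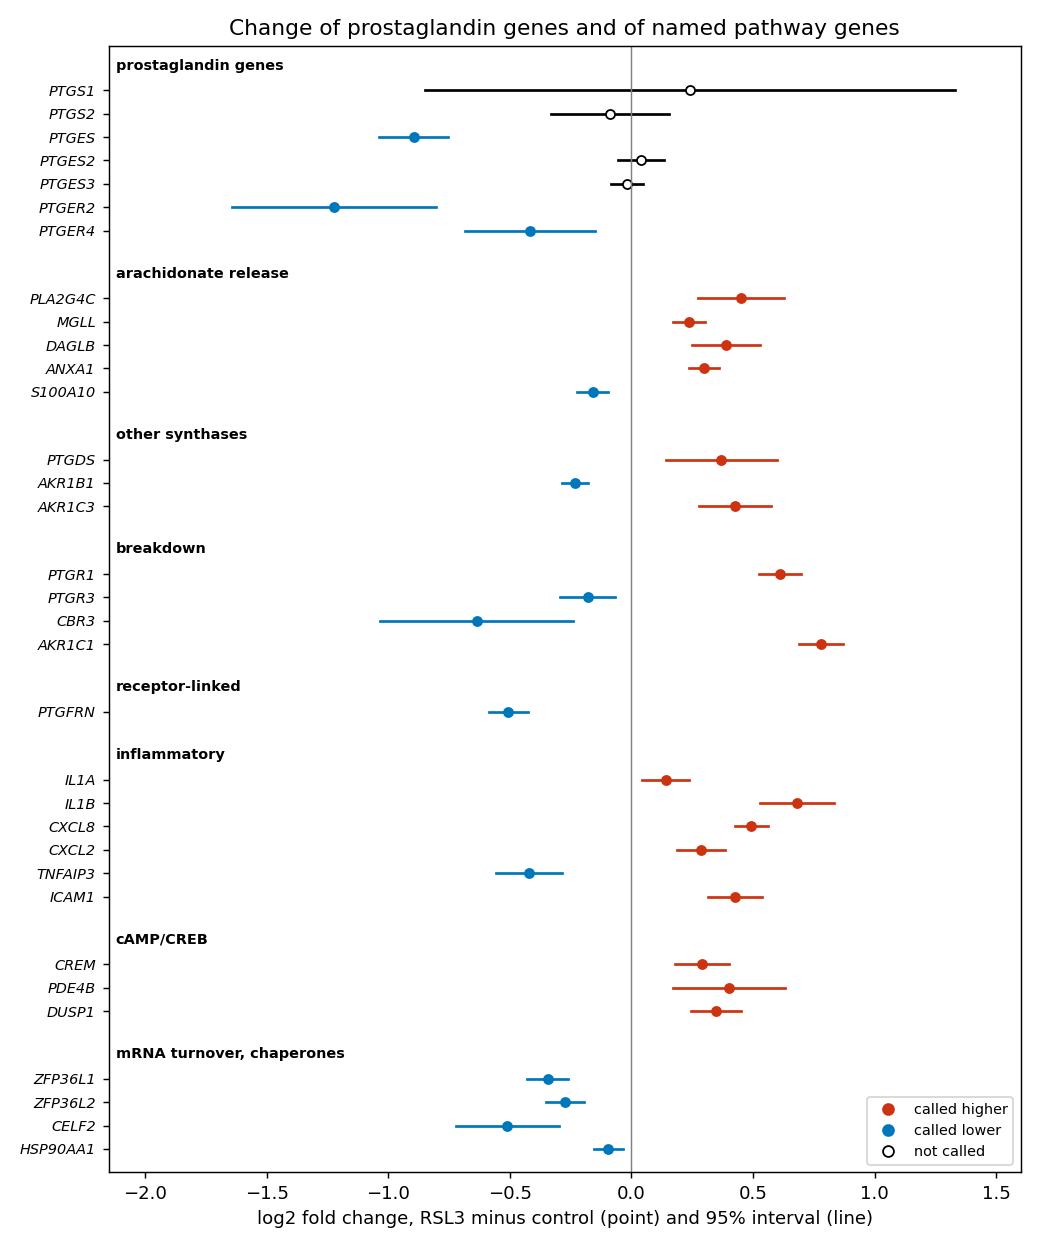
Log2 fold change (RSL3 minus control, horizontal axis) with its 95% interval for the 7 prostaglandin genes tested and the named pathway genes, grouped by role, coloured by call. PTGER2 (-1.22), PTGES (-0.90) and PTGER4 (-0.42) lie left of 0. The inflammatory genes shown lie right of 0 apart from TNFAIP3 (-0.42). Pathway genes are drawn only if called, so the 6 inflammatory genes not called are absent. MMP1 and PLA2G4A, which were added later, are not drawn either.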

How the data were processed

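Poly(A) RNA of U87MG cells treated with vehicle or RSL3 was sequenced in read pairs; the labels give no time, and the study's text gives 24 h. Per the study's methods, reads were trimmed (Trimmomatic 0.36, then Fastp), placed on GRCh38.p4 by HISAT2 and counted by HTSeq 0.6.1p1 over exons, ignoring strand. The values the authors deposited are raw counts per Ensembl gene, with no normalization; the annotation release is not given in the sources used here.

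The test was that of edgeR 4.0.16 under R 4.3.3 (filterByExpr with a minimum count of 10, TMM, quasi-likelihood F test, Benjamini-Hochberg adjustment over all genes tested). Intervals come from that fit, which draws the variance of each gene towards that of other genes. They can therefore be narrower than the spread between a gene's own libraries would give. RPKM, coordinates and exon overlaps use GENCODE v44 on GRCh38. Scripts were tested on simulated data. The study's own tool, DESeq2 (1.42.0 here) with surrogate variables (sva 3.50.0), was an alternative, since their number is not stated. Other alternatives were library scaling, filters, thresholds, a replicate block and each library left out. The 9 genes and all lists were chosen with earlier results of these data known. Named pathway genes were the called genes of each list, at most 4 with the smallest p. Any called gene with a mean of at least 1000 normalized counts was named too. PLA2G4A and MMP1 were added after their values were seen, as were ALOX5 and LTC4S.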

Additional observations from a re-analysis of the deposited data

How the results depend on the processing

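PTGES and PTGER2 were called lower under each of the alternatives run, apart from a minimum size of 1 for the log2 fold change in either direction, which only PTGER2 met and which left 213 genes called of all genes, 1 of the 9 prostaglandin genes lower, and 0 pathway genes in either direction. At an adjusted p under 0.01, 2691 genes and 7 pathway genes called lower were left, and PTGER4 was not called. DESeq2 with 2 surrogate variables called 2268 genes, against 4123 in edgeR, and lost PTGER4. Leaving out single libraries moved the log2 fold change of PTGS1 between -0.096 and 0.343, of PTGS2 between -0.319 and 0.0761, of PTGES2 between -0.00719 and 0.0874 and of PTGES3 between -0.0362 and 0.00787, so their direction turned with the library left out; the cause was not tested. PTGS1 was not tested in 7 of the 14 alternative fits. For the 26 named pathway genes, 343 of 364 alternative values kept direction and call, and the other 21 kept direction only. With the replicate number as a replicate block, 4 of the 9 genes were called lower, PTGS2 (-0.10) being the one added, and 4633 of all genes. The labels do not say that equal numbers share a culture or day, and the correlations of same-numbered libraries' deviations from their group means were 0.03, 0.03 and 0.07, although each library correlated best with its own number. Exon length as the longest transcript changed the control RPKM of PTGES2, PTGES3 and HPGD by more than their SD. Depth limits PTGS1, PTGIS and HPGD, at 13 or fewer raw counts per library.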

Other observations

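Replicate 3 was the highest library of both groups for 6 of the 13 inflammatory genes (CXCL2, CXCL3, CXCL8, IL1B, IL6 and LIF). The same held for 4 of 12 tested genes of the cyclic AMP list (DUSP1, FOS, FOSB and NR4A1), against 14% of all genes tested. FOS, an immediate-early gene, lay 1.84 above the mean of the other control libraries on the log2 scale in control replicate 3, and 0.44 above that of the other RSL3-treated libraries in RSL3 replicate 3. NR4A1 lay 0.63 and 0.92 above, and IL6, which was not called between the groups, 0.31 and 0.32 above. These genes were singled out after the values of PTGS2 had been seen, and what sets replicate 3 apart was not tested.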
